A study of Mus musculus with 5 samples.

Results

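The neural-type adhesion genes of hepatic stellate cells (HSC) described here are 9 genes of the 31053 in the count tables: Reln, Ngfr, Ntm, Cadm1, Alcam, Ncam1, Clstn2, Syn3 and Dclk1. They were listed by name, and the list was chosen from measured ratios between these same libraries, in which Cadm1, Ntm and Syn3 stood out. The library ratios and shares of positive cells below are therefore descriptions with no test, and they support no choice of members. Each value comes from 1 library per group, so all intervals are 95% intervals for counting error only, and no spread between animals could be measured.

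Single-cell RNA sequencing (scRNA-seq) was performed on liver cells of male Rosa26mTmG;Col1a1-Cre mice on a C57BL/6J background, which carry a Cre recombinase driven by the Col1a1 collagen promoter and a reporter that turns green (GFP) where Cre has acted. Disease mice received diethyl nitrosamine (DEN), a liver carcinogen, at 10 mg/kg when 2 weeks old, and from 6 weeks of age a liquid Western alcohol diet (WAD) with 3.5% v/v ethanol for 5 months. Control mice carried the same alleles and received saline and chow over the same time. Cells were sorted by GFP and by the autofluorescence of stored vitamin A (VitA), giving 5 libraries. The VitA+Col1a1+ and the VitA-Col1a1+ gate were each sorted from both treatments, and another library, from DEN+WAD only, carries the label VitA-Col1a1-. How many animals gave each library is not given in the sources used here.

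HSC are the vitamin A-storing pericytes of the liver sinusoid, and they share with cells of the nervous system a set of surface and secreted proteins better known from axons and synapses. Reelin is a secreted glycoprotein that guides migrating neurons through lipoprotein-type receptors, and in liver it is a known HSC product. Ngfr (p75) is a neurotrophin receptor, and Ntm, Cadm1, Alcam and Ncam1 are immunoglobulin-type adhesion molecules that hold neighbouring cells together. The question was how these genes lie across the vitamin A gates, the 2 treatments and the kinds of cell within each library.

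The libraries held between 259 and 10481 cells and between 6145748 and 149936344 unique molecular identifiers (UMIs, single counted RNA molecules). VitA+Col1a1+ chow was the smallest, so a gene with no UMI there could still lie at 0.488 UMIs per 1000000 counted (CPM). Lrat, the enzyme that stores vitamin A in HSC, was found in 97.1% and 94.6% of cells of the VitA+ DEN+WAD and chow libraries, in 70.4% and 72.5% of the VitA- ones, and in 49.6% of the library labelled VitA-Col1a1-. That library held Col1a1 RNA at 1062 CPM against 958 CPM in VitA-Col1a1+ DEN+WAD, which goes against its label. Named by marker lists, HSC-like clusters (stellate-like in the plots) held 80.0% and 83.0% of cells in the VitA+ libraries, 29.1% and 13.9% in the VitA- libraries (DEN+WAD, then chow) and 19.7% in the library labelled VitA-Col1a1-. The other named cells of the VitA- libraries were chiefly portal fibroblast-like (17.2% in DEN+WAD and 53.1% in chow), smooth muscle-like (11.8% in chow) and endothelial-like (16.0% in DEN+WAD). The library labelled VitA-Col1a1- also held 25.1% endothelial-like and 14.3% macrophage-like cells. Clusters left unnamed held 17.7% and 17.0% of cells in the VitA+ libraries and 37.7% and 15.7% in the VitA- ones (DEN+WAD, then chow). In the library labelled VitA-Col1a1- they held 33.4%. With a clustering resolution of 0.5 in place of 1, HSC-like clusters held 67.4% and 66.4% of cells in the VitA+ libraries. They then held 36.1% and 4.04% in the VitA- libraries (DEN+WAD, then chow) and 7.94% in the library labelled VitA-Col1a1-. No pair of libraries shared more than 21 cell barcodes. The summed markers of Schwann or glial cells (8 genes) lay between 1.19 and 5.73 CPM, with Sox10 and Gfra3 at 0 in all 5 libraries, and those of neurons (8 genes) lay between 10.5 and 30.9 CPM, most of it Rbfox3. In a library summed over its cells, fewer cells of a type and less RNA per cell cannot be told apart.

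The promoters of Reln, Ngfr and Ntm, each higher in both VitA+ libraries than in every other library, are shown first. Of the 9 genes, 6 were found in a RefSeq table of promoters (assembly GRCm38.p6). Cadm1, Ncam1 and Syn3 have no entry in it. Each sequence below covers up to 250 bases before the transcription start, read 5' to 3' on the minus strand, and capitals mark the motif matches described after them. For Ngfr, 37 bases covered by an annotated exon were left out.
Reln, chr5:22344706-22344955: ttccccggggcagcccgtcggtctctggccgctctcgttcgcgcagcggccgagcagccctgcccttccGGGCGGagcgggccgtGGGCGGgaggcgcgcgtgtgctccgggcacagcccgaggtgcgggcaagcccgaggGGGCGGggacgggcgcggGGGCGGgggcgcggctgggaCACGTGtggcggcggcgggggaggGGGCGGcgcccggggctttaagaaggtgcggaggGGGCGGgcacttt
Ngfr, chr11:95587736-95587948: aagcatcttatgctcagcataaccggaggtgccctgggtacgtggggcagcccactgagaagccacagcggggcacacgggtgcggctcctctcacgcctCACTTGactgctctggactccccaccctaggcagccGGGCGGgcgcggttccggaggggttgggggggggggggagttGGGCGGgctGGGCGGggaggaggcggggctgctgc
Ntm, chr9:29413453-29413702: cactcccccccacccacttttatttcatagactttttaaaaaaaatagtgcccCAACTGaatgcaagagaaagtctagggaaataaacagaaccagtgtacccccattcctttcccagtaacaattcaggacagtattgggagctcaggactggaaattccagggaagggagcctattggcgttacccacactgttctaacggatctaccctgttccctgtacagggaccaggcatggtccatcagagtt
The motifs of 5 kinds were searched on both strands, and no matches overlapped. The E-box CANNTG was found 1 time in each of the 3 sequences, and 66.2% of the 32851 promoters in the table hold it in their 250 bases. The GC box GGGCGG was found 6 times for Reln and 3 times for Ngfr, against 32.7% of all promoters with at least 1 match. It was not found for Ntm. The GATA motif AGATAA (9.99% of promoters), the homeobox motif TAATTA (4.84%) and the AP-1 motif TGANTCA (6.75%) were found in none of the 3 windows. The GC content was 80.0% for Reln, 70.9% for Ngfr and 46.8% for Ntm, where the median of all promoters was 52.4%. The Reln and Ngfr windows end just before the annotated gene, whereas the RefSeq start of Ntm lies within an intron of the longer Ntm gene in the GENCODE annotation. The matches are letters in these windows and were not tied to any binding.

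Reln (ENSMUSG00000042453, GRCm38 chr5:21884454-22344702, minus strand), which encodes the secreted protein reelin, was highest in the VitA+ libraries. It was at 1167 CPM in VitA+Col1a1+ DEN+WAD and 1879 CPM in VitA+Col1a1+ chow, 503 CPM in VitA-Col1a1+ DEN+WAD, 92.5 CPM in VitA-Col1a1+ chow and 234 CPM in the library labelled VitA-Col1a1-. No neighbours in this order had overlapping counting intervals. In the plot of levels by library, Reln spans more than a factor of 10 between the chow gates, with the 2 DEN+WAD gates lying between them.

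Ngfr (ENSMUSG00000000120, chr11:95568818-95587735, minus strand), the p75 receptor that binds neurotrophins, kept the same order of libraries. Its levels were 203 and 304 CPM in the DEN+WAD and chow VitA+ libraries, 70.7 and 28.0 CPM in the VitA- ones, and 56.4 CPM in the library labelled VitA-Col1a1-. Ntm (neurotrimin, ENSMUSG00000059974, chr9:28994750-29963141, minus strand), a GPI-anchored IgLON adhesion protein, was at 431 and 479 CPM in the VitA+ libraries, at 87.2 and 21.2 CPM in the VitA- ones and at 28.6 CPM in the library labelled VitA-Col1a1-. Both genes were thus highest in VitA+ chow and lowest in VitA- chow, as Reln was.

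Cadm1 (ENSMUSG00000032076, chr9:47530173-47857637, plus strand), an immunoglobulin-type adhesion molecule that organizes synapses and epithelial contacts, was ordered by treatment. It was at 103 CPM in VitA+Col1a1+ DEN+WAD, 35.1 CPM in VitA-Col1a1+ DEN+WAD and 88.0 CPM in the library labelled VitA-Col1a1-. The chow libraries were at 8.79 CPM (6.60 to 11.5, from 54 UMIs) in the VitA+ gate and 6.73 CPM (5.49 to 8.18, from 101 UMIs) in the VitA- gate, so the chow pair did not differ beyond counting error and all 3 DEN+WAD libraries lay above it.

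Alcam (CD166, ENSMUSG00000022636, chr16:52248996-52454074, minus strand), an adhesion molecule of axons, leukocyte contacts and several epithelia, was at 68.7 and 58.9 CPM in the DEN+WAD and chow VitA+ libraries, 187 and 79.1 CPM in the VitA- ones and 161 CPM in the library labelled VitA-Col1a1-. It showed the narrowest range of the 9 genes. Ncam1 (ENSMUSG00000039542, chr9:49502136-49798925, minus strand), the neural cell adhesion molecule, was low in the VitA+ gate, at 6.1 CPM in DEN+WAD and 1.14 CPM (0.458 to 2.35, from 7 UMIs) in chow. It was at 46.0 and 105 CPM in the VitA- DEN+WAD and chow libraries, and at 34.1 CPM in the library labelled VitA-Col1a1-.

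Clstn2 (calsyntenin 2, ENSMUSG00000032452, chr9:97444395-98033181, minus strand), a cadherin-type protein of the postsynaptic membrane, was low everywhere. Its levels were 10.4 CPM in VitA+Col1a1+ DEN+WAD, 7.0 CPM (5.06 to 9.42) in VitA+Col1a1+ chow, 4.53 CPM (3.95 to 5.18) in VitA-Col1a1+ DEN+WAD, 1.73 CPM (1.13 to 2.54, from 26 UMIs) in VitA-Col1a1+ chow and 12.0 CPM in the library labelled VitA-Col1a1-. VitA+ chow and VitA- DEN+WAD did not differ beyond counting error. Dclk1 (ENSMUSG00000027797, chr3:55242364-55539068, plus strand), a doublecortin-type kinase that binds microtubules, was highest in VitA-Col1a1+ chow, as Ncam1 was. It was at 13.0 and 0.163 CPM (the latter from 1 UMI, interval 0.00412 to 0.907) in the DEN+WAD and chow VitA+ libraries, at 22.6 and 40.8 CPM in the VitA- ones, and at 15.4 CPM in the library labelled VitA-Col1a1-.

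Syn3 (synapsin 3, ENSMUSG00000059602, chr10:86055125-86498896, minus strand), which coats synaptic vesicles, was at 7.77 and 20.8 CPM in the DEN+WAD and chow VitA+ libraries, 14.4 and 106 CPM in the VitA- ones and 45.6 CPM in the library labelled VitA-Col1a1-. Chow was above DEN+WAD in both gates. Timp3, a metalloproteinase inhibitor that HSC and fibroblasts make in quantity, lies wholly inside Syn3 on the other strand (chr10:86300372-86349506, plus strand), and the annotated exons of the pair share 1733 bases. The authors report counting with Cell Ranger at its default parameters and name no strand setting, so Syn3 counts are uncertain.

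**Figure D1:**
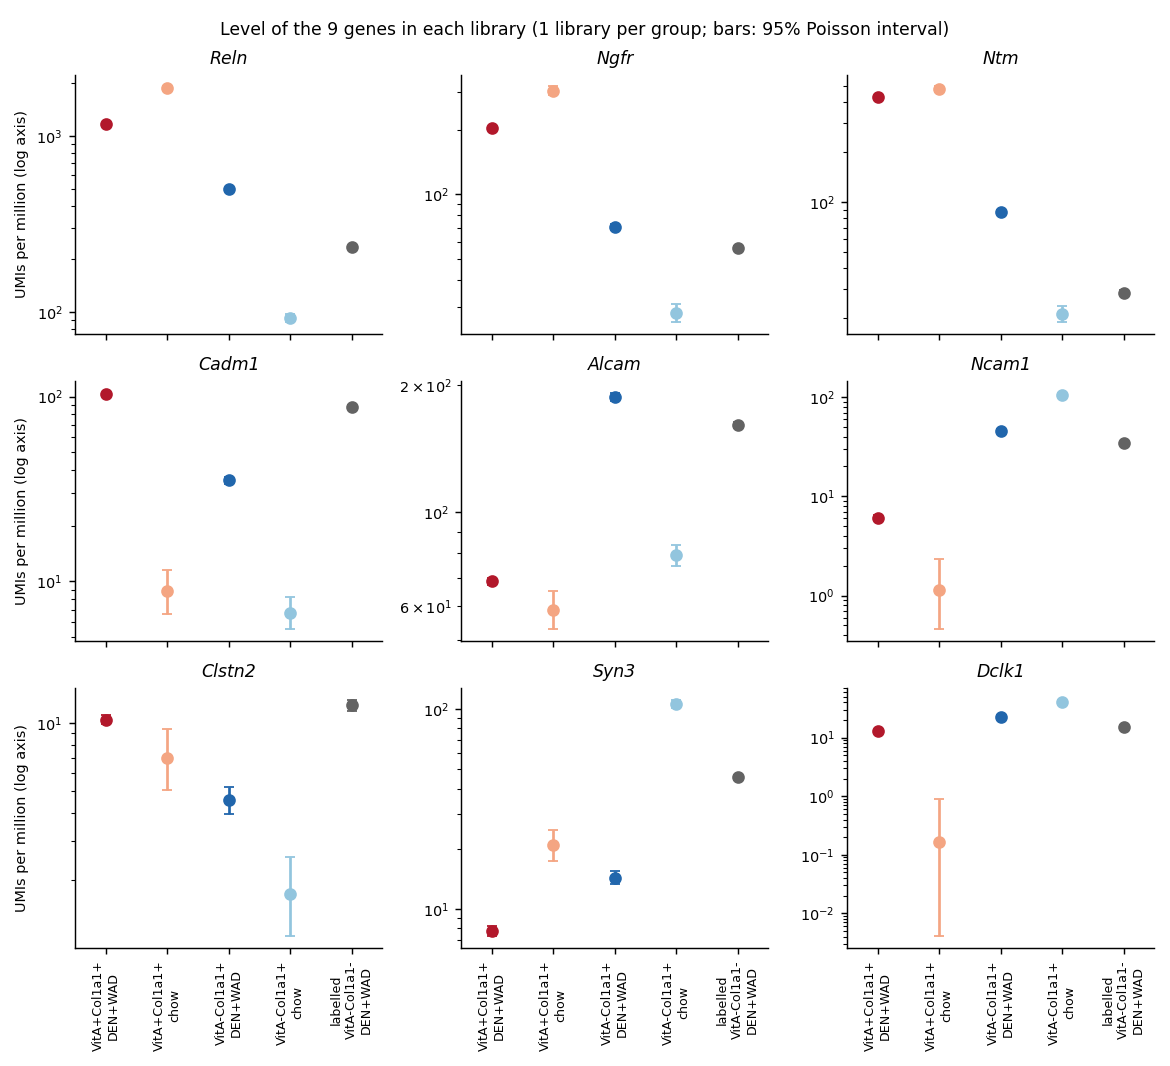
Levels of the 9 genes in the 5 libraries, as CPM on a log axis, with 95% Poisson intervals as bars. Reln, Ngfr and Ntm are highest in the VitA+ libraries, Cadm1 is low in both chow libraries, and Ncam1, Syn3 and Dclk1 are highest in VitA-Col1a1+ chow.

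DEN+WAD was first compared with chow within the VitA+ gate, where cells of both libraries were mostly HSC-like. Of the 9 genes, 3 were more than 2-fold higher and 1 was more than 2-fold lower in DEN+WAD, where 1.41% and 3.94% of the 9907 genes with at least 5 CPM in 1 of the libraries passed these bounds. Nothing is read from these counts, since the genes were chosen with these ratios known. Cadm1 was 11.7-fold higher (8.96 to 15.6), a log2 ratio of 3.55, and Ncam1 was 5.36-fold higher (2.59 to 13.4). Dclk1 had 1946 UMIs against 1, a ratio of 79.8 with limits of 14.3 and 3152. Syn3 was at 0.373 of its chow level (0.311 to 0.451).

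The remaining 5 genes stayed inside 2-fold in the VitA+ gate. The log2 ratio was -0.69 for Reln, -0.58 for Ngfr and -0.15 for Ntm, and it was 0.22 for Alcam and 0.57 for Clstn2, with every interval clear of 0. The signs for Ntm and Alcam depended on the processing, as the closing section gives. In HSC-like clusters Alcam was at 45.9 CPM in DEN+WAD against 58.0 CPM in chow. The median over the 9 genes was 0.22, against -0.08 over all genes. Among Lrat-positive cells with at least 5000 UMIs the same number were past 2-fold (3 higher and 1 lower, against 1.54% and 2.9% of all genes), and Cadm1 was 16.2-fold higher with 38 UMIs in chow.

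In the VitA- gate, 6 of the 9 genes were more than 2-fold higher and 2 more than 2-fold lower in DEN+WAD than in chow, against 5.04% and 5.54% of 10583 genes. Clstn2, 1 of the 6, was under 5 CPM in both libraries. Reln was 5.44-fold higher, Ntm 4.11-fold, Ngfr 2.53-fold, Cadm1 5.21-fold, Alcam 2.37-fold and Clstn2 2.62-fold. Syn3 was at 0.136 and Ncam1 at 0.440 of the chow level, and Dclk1 was at 0.553. The median log2 ratio over the 9 genes was 1.29, against -0.03 over all genes.

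The cells of the VitA- libraries differed in kind between the treatments. The summed HSC markers were at 11911 CPM in DEN+WAD and 5028 CPM in chow, the portal fibroblast markers at 2669 and 6472 CPM, and the smooth muscle markers at 207 and 915 CPM. Their part in the ratios of all cells was not tested, and values within named classes are given further on. Restricting to Lrat-positive cells left 6 genes higher and 2 lower, against 4.29% and 6.97% of all genes. There Reln had a log2 ratio of 2.49, Ntm 2.22, Alcam 1.48 and Syn3 -2.97, and Cadm1 was 16.6-fold higher (11.5 to 24.9) with 29 UMIs in chow.

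**Figure D2:**
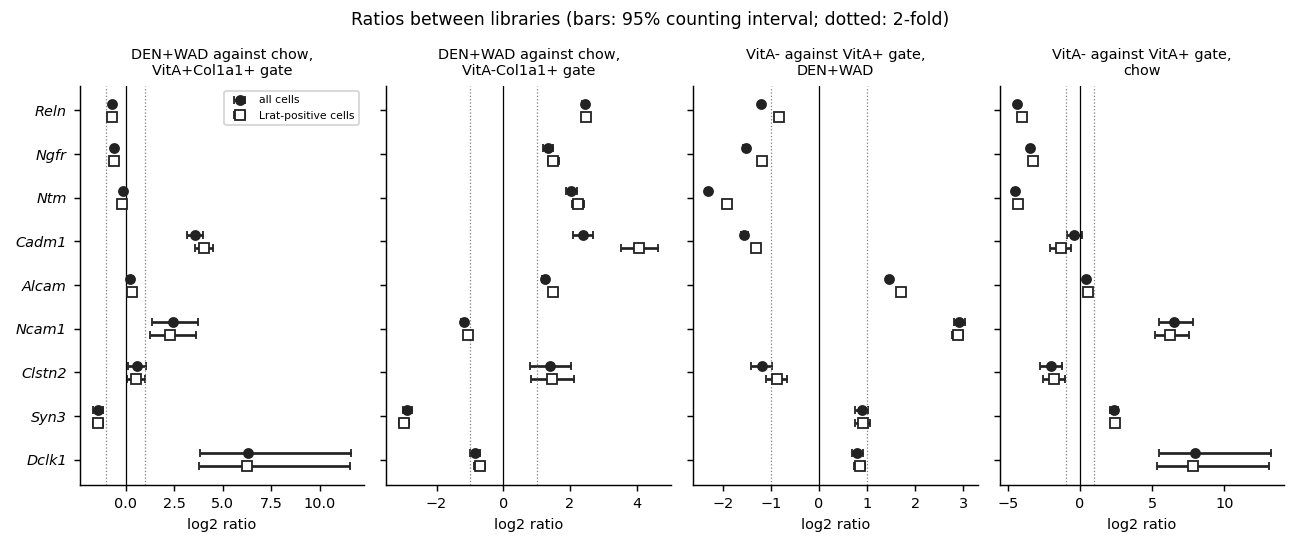
Log2 ratios of CPM (x axis) for the 9 genes in the 4 comparisons, in all cells (filled) and in Lrat-positive cells (open), with 95% intervals for counting error as bars and dotted lines at 2-fold. Cadm1 lies to the right of 0 and Syn3 to the left of 0 for DEN+WAD against chow in both gates, while Reln, Ngfr, Ntm, Ncam1 and Dclk1 change side between the gates.

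The VitA- gate was then compared with the VitA+ gate. In DEN+WAD liver, 2 of the 9 genes were more than 2-fold higher and 5 more than 2-fold lower in the VitA- library, against 10.2% and 1.72% of 10270 genes. The log2 ratio was -1.21 for Reln, -1.52 for Ngfr, -2.30 for Ntm, -1.55 for Cadm1 and -1.19 for Clstn2, and it was 1.45 for Alcam and 2.91 for Ncam1. Syn3 (0.89) and Dclk1 (0.80) were higher by less than 2-fold. Lrat itself was at -1.29, and the summed HSC markers were at 11911 CPM in the VitA- and 30211 CPM in the VitA+ library, whose part in these ratios was not tested. Among Lrat-positive cells, 2 genes were higher and 3 lower, against 7.33% and 1.18% of all genes, with Reln (-0.83) and Clstn2 (-0.88) no longer past 2-fold.

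In chow liver the gates lay further apart. Of the 9 genes, 3 were more than 2-fold higher and 4 more than 2-fold lower in the VitA- library, against 11.9% and 5.68% of 10569 genes. Reln had a log2 ratio of -4.34, Ngfr of -3.44, Ntm of -4.50 and Clstn2 of -2.01. Ncam1 was 91.8-fold higher (44.4 to 229), from 7 UMIs in the VitA+ library, and Syn3 was 5.08-fold higher. Dclk1 had a ratio of 251 with limits of 44.8 and 9922, since the VitA+ library held 1 UMI. Cadm1 did not differ beyond counting error (-0.38, interval -0.87 to 0.12), and Alcam was higher by a log2 ratio of 0.43. Lrat was at -2.35, and the summed HSC markers were at 5028 CPM in the VitA- and 30346 CPM in the VitA+ library. In Lrat-positive cells, 3 genes were higher and 5 lower, against 12.1% and 6.18% of all genes, as Cadm1 was then at -1.34. Within HSC-like clusters, described further on, Clstn2 and Alcam turned direction. Clstn2 was at 13.7 CPM in VitA- against 1.57 CPM in VitA+, and Alcam at 24.5 against 58.0 CPM.

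These 4 comparisons share libraries with one another, so their values are not independent. The median log2 ratio over the 9 genes was -1.19 for the gates in DEN+WAD and -0.38 in chow, against 0.10 and 0.08 over all genes.

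The share of positive cells was counted among Lrat-positive cells with at least 5000 UMIs, each thinned at random to 5000 UMIs so that depth was equal. This kept 10044 and 243 cells of the VitA+Col1a1+ gate (DEN+WAD, then chow), 1883 and 480 cells of the VitA-Col1a1+ gate (DEN+WAD, then chow) and 4278 cells of the library labelled VitA-Col1a1-. Their median depth before thinning was 13363, 24587, 17418, 23298 and 12429.5 UMIs. Shares below are in that order of libraries.

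Reln was found in 98.6% (98.3 to 98.8), 100% (98.5 to 100), 74.5% (72.4 to 76.4), 12.9% (10.1 to 16.2) and 66.1% (64.7 to 67.6) of these cells. Without thinning the shares were 99.6%, 100%, 80.9%, 17.7% and 78.6%. Among endothelial-like cells, taken as the background class, Reln was found in 30.1% in VitA+Col1a1+ DEN+WAD (median depth 9696.5 UMIs), 7.62% in VitA-Col1a1+ DEN+WAD (13742 UMIs), 0 of 35 in VitA-Col1a1+ chow (17606 UMIs), which allows a share of up to 8.57%, and 5.34% in the library labelled VitA-Col1a1- (8417 UMIs). Each of these shares lay below that of the Lrat-positive cells of its library. In VitA+Col1a1+ chow a cluster of 12 cells led by endothelial genes stayed unnamed, and no share was computed.

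Ntm was found in 82.5%, 87.7%, 34.8%, 8.33% and 17.8% of Lrat-positive cells, and without thinning in 95.5%, 99.6%, 53.0%, 16.0% and 31.9%. Ngfr was found in 53.1%, 61.7%, 25.8%, 11.2% and 28.4%, and without thinning in 75.4%, 84.0%, 45.6%, 26.9% and 43.7%. In endothelial-like cells of VitA+Col1a1+ DEN+WAD the shares were 14.6% for Ntm and 9.71% for Ngfr. Among Lrat-negative cells of the libraries other than VitA+ chow, Ntm was found in at most 4.29% and Ngfr in at most 5.08%. Both shares were under those of Lrat-positive cells in each library, though the intervals overlapped in VitA-Col1a1+ chow.

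Cadm1 separated the treatments among Lrat-positive cells. It was found in 35.9% (35.0 to 36.9) of them in VitA+Col1a1+ DEN+WAD against 4 of 243 (1.65%, 0.450 to 4.16) in chow, and in 17.5% (15.8 to 19.3) in VitA-Col1a1+ DEN+WAD against 3 of 480 (0.625%, 0.129 to 1.82) in chow. The library labelled VitA-Col1a1- was at 17.9%. Without thinning the shares were 63.3%, 6.17%, 36.4%, 2.08% and 29.4%. Endothelial-like cells held Cadm1 in 5.34%, 0.714% and 2.94% of cells of the 3 DEN+WAD libraries and in 0 of 35 in VitA- chow, and the chow shares of Lrat-positive cells were not above this range. Lrat-negative cells held Cadm1 more often than Lrat-positive ones in the library labelled VitA-Col1a1- (23.1%) and in VitA-Col1a1+ chow (5.52%).

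Alcam was found in 16.8%, 22.2%, 34.6%, 17.5% and 30.2% of Lrat-positive cells, and Ncam1 in 1.27%, 0.412% (1 cell), 12.4%, 21.9% and 13.9%. Without thinning the shares were 32.9%, 56.0%, 53.3%, 37.1% and 41.3% for Alcam and 2.64%, 1.23%, 24.4%, 41.9% and 20.9% for Ncam1. Ncam1 was about as frequent in Lrat-negative as in Lrat-positive cells of the 2 VitA-Col1a1+ libraries (13.1% and 21.5%). In endothelial-like cells Alcam was found in at most 3.4% and Ncam1 in at most 1.08% of cells of a library. Clstn2 stayed under 10% in every library (4.78%, 1.23%, 2.34%, 1.46% and 7.99%), and without thinning it was found in 10.2%, 8.23%, 6.27%, 2.92% and 15.2% of Lrat-positive cells. Its share in endothelial-like cells was at most 0.833%, and 1.23% in VitA+ chow stood for 3 cells.

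Syn3 was found in 3.79%, 7.0%, 5.84%, 34.8% and 23.3% of Lrat-positive cells, and in 32.5% of Lrat-negative cells of VitA- chow. Endothelial-like cells held Syn3 in 3.88%, 3.33%, 20.0% and 14.9% of cells of the libraries that had them, with the same libraries high. Dclk1 was found in 3.48%, 0 of 243 (which allows a share of up to 1.23%), 5.89%, 12.9% and 8.06%. Like Ncam1, both were about as frequent without as with Lrat in the VitA- chow library, with Dclk1 in 15.3% of its Lrat-negative cells. Without thinning, Syn3 was found in 10.0%, 30.5%, 20.2%, 80.4% and 43.9%, and Dclk1 in 7.90%, 0.412%, 13.9%, 32.1% and 16.9% of Lrat-positive cells.

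Counted together, a thinned Lrat-positive cell most often held 3 of the 9 genes in the VitA+ libraries (40.0% of cells in DEN+WAD and 55.1% in chow), 2 in VitA-Col1a1+ DEN+WAD (30.6%) and the library labelled VitA-Col1a1- (28.5%), and 1 in VitA-Col1a1+ chow (38.8%). None of the 9 was found in 26.0% of Lrat-positive cells of VitA-Col1a1+ chow, against 0.378% in VitA+Col1a1+ DEN+WAD and 0 of 243 in VitA+Col1a1+ chow.

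**Figure D3:**
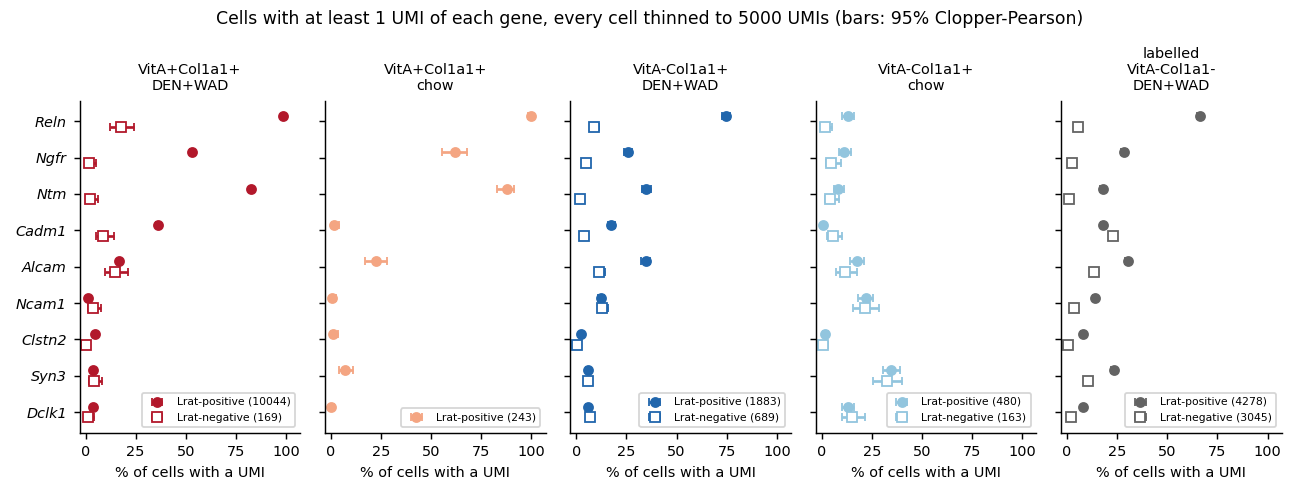
Share of cells (x axis, percent), thinned to 5000 UMIs, that held each of the 9 genes, for Lrat-positive (filled) and Lrat-negative cells (open) of the 5 libraries, with exact binomial 95% intervals. Lrat-negative cells of VitA+ chow were too few to plot. Reln, Ngfr and Ntm are most frequent in Lrat-positive cells of the VitA+ libraries, and Cadm1 is near 0 in those of both chow libraries.

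Cells were then divided into clusters within each library, without using the 9 genes, Lrat or Timp3. Within HSC-like clusters Reln, Ngfr, Ntm and Cadm1 lay closer together between the DEN+WAD gates than in whole libraries. Reln was at 1226 CPM in VitA+Col1a1+ DEN+WAD and 1073 CPM in VitA-Col1a1+ DEN+WAD, Ngfr at 180 and 174 CPM, and Cadm1 at 104 and 80.4 CPM. Ntm kept the widest gap of the 4, with 447 against 269 CPM. Clstn2 and Dclk1 turned direction, with log2 ratios of VitA- to VitA+ of 0.62 and -0.90, against -1.19 and 0.80 in all cells. None of the 9 genes was past 2-fold between these HSC-like cells of the DEN+WAD gates.

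Between treatments, Cadm1 was low in HSC-like cells of both chow libraries, at 7.27 CPM (37 UMIs) in the VitA+ gate and 1.71 CPM (3 UMIs, interval 0.353 to 5.00) in the VitA- gate. Syn3 was higher in chow in both, at 16.7 against 7.70 CPM in the VitA+ gate and 129 against 8.32 CPM in the VitA- gate. Without the Ephx3-led cluster described next, Syn3 in VitA-Col1a1+ chow was 20.4 CPM (10 UMIs, interval 9.80 to 37.6). The order of Cadm1 and Syn3 between treatments was thus the same in HSC-like cells as in whole libraries.

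The HSC-like cells of VitA-Col1a1+ chow came from 2 unlike clusters. One, of 27 cells led by Fcna, Colec10 and Tmem56, had Reln at 1538 CPM, Ngfr at 225, Ntm at 376 and Lrat at 2096 CPM, levels near those of the VitA+ gate. The other, of 66 cells led by Ephx3 and Rgs4 with the mural cell genes Rgs5, Higd1b and Cspg4 also among its leading genes, had Reln at 83.8 CPM, Ngfr at 36.4, Ntm at 45.9 and Lrat at 382 CPM. It also held Syn3 at 172 CPM and Timp3 at 3588 CPM. An Ephx3-led cluster of 216 cells in VitA-Col1a1+ DEN+WAD, with Acta2 and Myh11 among its leading genes, stayed unnamed, so the HSC-like class held different clusters in the treatments of this gate.

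The direction for several genes turned on that cluster. With both clusters, the log2 ratio of DEN+WAD to chow in HSC-like cells of the VitA- gate was 1.13 for Reln, 0.97 for Ngfr and 0.96 for Ntm. Without the Ephx3-led cluster it was -0.52, -0.37 and -0.48, the direction seen in the VitA+ gate. This exclusion was chosen after its values were seen, and 27 cells remained in chow.

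Other classes of cell held some of the genes at higher levels than HSC-like cells did. In the library labelled VitA-Col1a1-, Cadm1 was at 273 CPM in macrophage-like and 385 CPM in cholangiocyte-like cells against 102 CPM in HSC-like cells. Macrophage-like cells there held Cadm1 in 65.6% of cells after thinning (median depth 19188 UMIs) and Reln in 5.52%. Alcam was at 625 CPM in cholangiocyte-like, 485 CPM in hepatocyte-like and 149 CPM in HSC-like cells of that library. Its summed level in that library thus came from several classes. In VitA-Col1a1+ DEN+WAD, an unnamed Wt1-led cluster of 157 cells held 45.2% of Alcam UMIs, at 1335 CPM. In VitA-Col1a1+ chow, an unnamed Spp1-led cluster of 46 cells held 57.8%, at 514 CPM.

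In the VitA- libraries Ncam1 and Dclk1 were higher in portal fibroblast-like than in HSC-like cells. Portal fibroblast-like cells held Ncam1 at 102 CPM in VitA-Col1a1+ DEN+WAD, 87.9 CPM in VitA-Col1a1+ chow and 192 CPM in the library labelled VitA-Col1a1-, where HSC-like cells were at 4.04, 1.71 and 9.97 CPM. Dclk1 was at 30.8, 37.0 and 65.0 CPM in portal fibroblast-like cells of these libraries, against 7.43, 18.8 and 15.3 CPM in HSC-like cells. In VitA-Col1a1+ chow every UMI of both genes in HSC-like cells came from the Ephx3-led cluster. Smooth muscle-like cells of VitA-Col1a1+ chow held Ncam1 at 186 CPM and Dclk1 at 89.4 CPM.

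Within the VitA+ gate of DEN+WAD liver, Ncam1 and Dclk1 were held by a few clusters. Ncam1 was highest, at 130 CPM (108 to 156), in an HSC-like cluster of 29 cells led by Top2a, Prc1 and Cenpf. That cluster held 13.2% of the Ncam1 UMIs of the library. The HSC-like cluster of 675 cells led by Timp1 and Ccl5 held Dclk1 at 74.1 CPM, 54.3% of all its UMIs in the library, with Ncam1 at 17.5 CPM. A Ccl5-led cluster of VitA-Col1a1+ DEN+WAD likewise held Dclk1 at 91.1 CPM and Ncam1 at 108 CPM. An unnamed cluster of 333 cells led by Mgp held Ncam1 at 82.8 CPM and Alcam at 711 CPM, 40.5% of all Alcam UMIs of the VitA+Col1a1+ DEN+WAD library.

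Alcam and Ngfr marked opposite ends of the HSC-like clusters of VitA+Col1a1+ DEN+WAD. The cluster led by Gcgr, the glucagon receptor (1069 cells), had Ngfr at 320 CPM, Ntm at 546, Cadm1 at 165, Clstn2 at 13.6 and Alcam at 17.6 CPM. The 3 clusters led by Inmt, a methyltransferase (1024, 1604 and 941 cells), had Ngfr between 87.8 and 120 CPM and Alcam between 44.4 and 79.0 CPM, and Clstn2 between 0.310 and 1.19 CPM. Reln varied less, and at 1375 CPM was highest in the Inmt-led cluster of 941 cells.

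A like arrangement was found in the other DEN+WAD libraries, each clustered by itself. In VitA-Col1a1+ DEN+WAD, the Gcgr-led cluster of 263 cells had Ngfr at 385 CPM, Cadm1 at 141, Clstn2 at 25.4 and Alcam at 17.4 CPM, and the Fcna-led cluster of 436 cells had Ngfr at 70.6, Cadm1 at 54.3, Clstn2 at 0.147 (1 UMI) and Alcam at 98.8 CPM. In the library labelled VitA-Col1a1-, the Rgs4-led cluster of 495 cells had Ngfr at 191 CPM, Clstn2 at 49.6 and Alcam at 35.9 CPM, and the Hhip-led cluster of 740 cells had Ngfr at 102, Clstn2 at 3.53 and Alcam at 257 CPM. Its other HSC-like cluster, of 709 cells with a median of 911 UMIs (9105.5 in the whole library) and led by Gm26870, departed from this, with Ngfr at 94.4 and Clstn2 at 43.4 CPM. In VitA+Col1a1+ chow, Clstn2 was highest, at 44.8 CPM, in an unnamed Spp1-led cluster of 32 cells, with the epithelial genes Krt8, Alb and Sox9 among its leading genes, that also had the most Ngfr (669 CPM), though Alcam was at 75.5 CPM there.

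**Figure D4:**
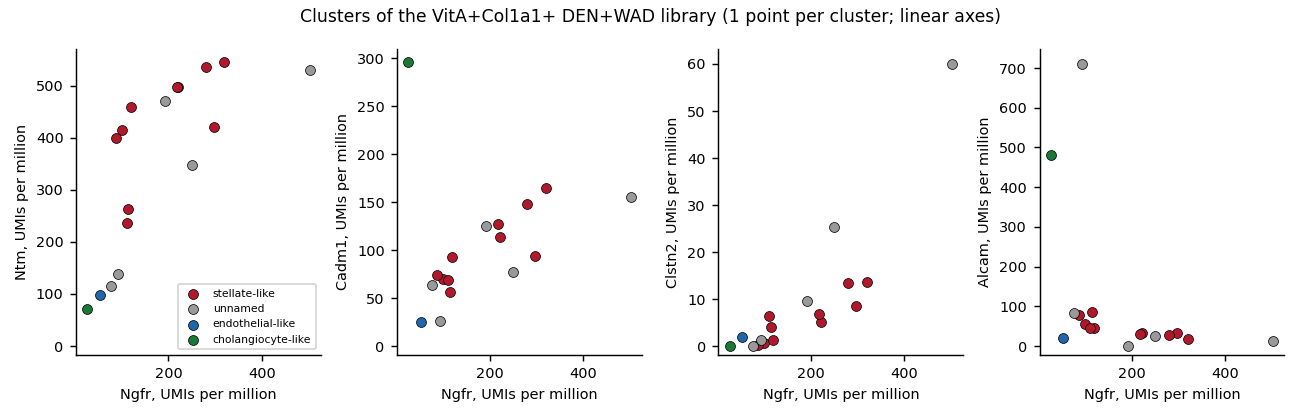
Ntm, Cadm1, Clstn2 and Alcam (y axes, UMIs per 1000000, linear) against Ngfr (x axis, same unit) in the 17 clusters of VitA+Col1a1+ DEN+WAD, 1 point per cluster, coloured by class. HSC-like clusters with more Ngfr lie higher for Cadm1 and Clstn2 and lower for Alcam, and the unnamed Mgp-led cluster stands at 711 CPM of Alcam.

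Co-detection in single thinned Lrat-positive cells, with no use of the clusters, gave the same directions in most libraries. In the VitA- libraries these cells were not all HSC-like, and the part of other classes was not tested. Alcam was found in 12.0% of cells with Ngfr and 22.2% of cells without it in VitA+Col1a1+ DEN+WAD, in 14.7% and 34.4% in VitA+Col1a1+ chow, in 25.6% and 37.8% in VitA-Col1a1+ DEN+WAD and in 26.2% and 31.8% in the library labelled VitA-Col1a1-, with intervals apart in each. VitA-Col1a1+ chow was the exception, with 31.5% and 15.7% and overlapping intervals. Clstn2 was found in 7.56% of cells with Ngfr against 1.63% without in VitA+Col1a1+ DEN+WAD, and in 6.19% against 1.0%, 7.41% against 0.704% and 16.2% against 4.73% in VitA-Col1a1+ DEN+WAD, VitA-Col1a1+ chow and the library labelled VitA-Col1a1-. The Clstn2 values of VitA-Col1a1+ chow stood for 4 and 3 cells. In VitA+Col1a1+ chow Clstn2 was found in 3 of 150 cells with Ngfr and 0 of 93 without, with overlapping intervals. Cadm1 was found in 40.6% against 30.7%, 27.4% against 14.0% and 23.8% against 15.5% in the 3 DEN+WAD libraries.

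Ntm went with Reln, and Ncam1 with Alcam. Ntm was found in 83.1% of cells with Reln and 39.6% of cells without it in VitA+Col1a1+ DEN+WAD, in 44.0% and 8.11% in VitA-Col1a1+ DEN+WAD, in 45.2% and 2.87% in VitA-Col1a1+ chow and in 22.8% and 8.01% in the library labelled VitA-Col1a1-. Ncam1 was found in 4.62% of cells with Alcam against 0.598% without in VitA+Col1a1+ DEN+WAD, 21.5% against 7.55% in VitA-Col1a1+ DEN+WAD and 31.0% against 6.47% in the library labelled VitA-Col1a1-. In VitA-Col1a1+ chow it was 25% against 21.2%, with overlapping intervals. In the VitA- libraries Ncam1 was less frequent in cells that held Ntm, with Ncam1 in 2.29%, 5.00% and 4.87% of cells with Ntm and in 17.8%, 23.4% and 15.8% of cells without it.

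Because of the overlap, Syn3 was set beside Timp3. Syn3 UMIs per 1000 Timp3 UMIs were 9.99 (9.42 to 10.6) in VitA+Col1a1+ DEN+WAD and 11.9 (11.1 to 12.9) in VitA-Col1a1+ DEN+WAD, against 38.3 (31.9 to 45.8) and 47.2 (44.9 to 49.7) in the matching chow libraries. The library labelled VitA-Col1a1-, also from DEN+WAD liver, was at 39.6 (38.4 to 40.7), nearer to the chow libraries. The ratio of the overlapping genes therefore did not separate by treatment across all 5 libraries.

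The same split of libraries was seen within classes of cell. In HSC-like cells the ratio was 10.2, 35.5, 14.0, 47.6 and 43.4 in the order of libraries used for the shares. In endothelial-like cells it was 5.29 and 5.03 in the VitA+ and VitA- DEN+WAD libraries, 21.4 in VitA- chow and 28.3 in the library labelled VitA-Col1a1-. Portal fibroblast-like cells had 12.5, 42.7 and 33.5 in the 3 VitA- libraries. The count tables of the 4 Col1a1+ libraries name 1 version of the counting software and that of the library labelled VitA-Col1a1- another, and the part of this in the Syn3 ratio was not tested.

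**Figure D5:**
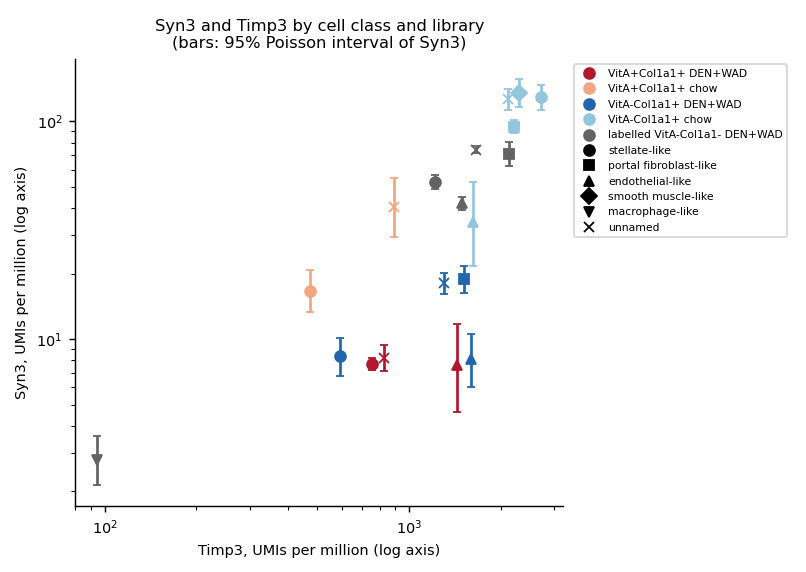
Syn3 (y axis) against Timp3 (x axis), both in UMIs per 1000000 on log axes, with 1 point per class of cell and library (symbol for the class, colour for the library) and 95% Poisson intervals of Syn3 as bars. At a like Timp3 level, points of the chow libraries and of the library labelled VitA-Col1a1- lie above those of the other DEN+WAD libraries, as in endothelial-like cells (34.6 and 42.2 CPM of Syn3 against 7.60 and 8.1 CPM).

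The 79 clusters of all libraries share libraries and are not independent. Over them, the genes most like Reln, Ngfr, Ntm, Cadm1, Alcam and Syn3 in level were taken. For Reln these were Ank3 (r = 0.944), Gdf2 (0.943) and Tmem56 (0.938), for Ngfr Steap4 (0.931), Pth1r (0.914) and Wfdc1 (0.910), and for Ntm Fam84a (0.930), Lrrc4c (0.917) and Mapt (0.914). Cadm1, Alcam and Syn3 had no partner as close. The highest values were 0.631 for Cadm1 with Csf2ra, 0.595 for Alcam with Deptor and 0.677 for Syn3 with 2310022B05Rik, while Syn3 and Timp3 had 0.570. Between members, r was 0.856 for Ngfr and Ntm, 0.839 for Reln and Ntm, 0.628 for Ncam1 and Dclk1 and -0.513 for Cadm1 and Syn3.

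The wider families and pathways of the 9 genes were followed in 7 lists of 58 other genes, of which 40 reached 5 CPM in any library. In the VitA+ gate, 28 were at this level in DEN+WAD or chow, 1 was more than 2-fold higher in DEN+WAD (Syp, a synaptic vesicle protein) and 2 were lower (Dab2, an endocytic adaptor, and Nrxn3, a neurexin). Over all genes at this level, 1.41% were more than 2-fold higher and 3.94% more than 2-fold lower. Syp was at 10.1 against 4.56 CPM, Dab2 at 14.7 against 42.3 CPM and Nrxn3 at 8.46 against 38.9 CPM. Among Lrat-positive cells Dab2 was within 2-fold, at a log2 ratio of -0.94. The summed endothelial markers were at 317 CPM in DEN+WAD and 671 CPM in chow, and their part in the Dab2 ratio was not tested. The median log2 ratio over the lists was -0.25, and Cadm3, a relative of Cadm1, was at 284 and 297 CPM, with no such difference between treatments as Cadm1 had.

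In the VitA- gate, 37 of these genes were at the minimum, 3 were more than 2-fold higher in DEN+WAD (Bdnf, Cadm3 and Clstn3) and 7 were lower (Vldlr, Ntrk2, Ntrk3, Sort1, Sorcs2, Cadm4 and Nlgn3). Over all genes at the minimum, 5.04% were higher and 5.54% lower by this bound. Cadm4 was within 2-fold among Lrat-positive cells, at a log2 ratio of 0.16. Among reelin receptors, Vldlr was at 0.167 and 0 CPM in the VitA+ DEN+WAD and chow libraries, and at 3.99 and 22.9 CPM in the VitA- ones. Lrp8, the other, was below 5 CPM in every library, as was the adaptor Dab1. The libraries in which Reln was highest thus had both receptors under 5 CPM.

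Neurotrophin receptor kinases differed between the gates. Ntrk2 was at 0.874 and 0.163 CPM in the VitA+ DEN+WAD and chow libraries and 45.8 and 105 CPM in the VitA- ones, and Ntrk3 at 2.48, 2.28, 26.1 and 110.2 CPM in the same order. Ntrk2 and Ntrk3 were thus higher in the gate with less Ngfr.

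Between the gates in DEN+WAD, 31 genes of the lists were at the minimum, 8 were more than 2-fold higher in VitA- (among them Dab2, Fyn, Bdnf, Ntrk2, Ntrk3, Sort1 and Bcam) and 5 were lower (among them Iglon5, Cadm3, Clstn3 and Cdh2). In chow, 38 were at the minimum, with 13 higher (among them Vldlr, Bdnf, Ntrk2, Ntrk3, Sort1, Sorcs2, Opcml, Cadm4, Bcam, Nlgn2, Syn2 and Syp) and 8 lower (among them Lsamp, Iglon5, Cadm3, Clstn3, Nrxn3, Cdh2 and Dclk2). Over all genes at the minimum, 10.2% were higher and 1.72% lower in DEN+WAD, and 11.9% and 5.68% in chow. Cadm3 was at 284 CPM in VitA+ against 98.8 CPM in VitA- in DEN+WAD, and at 297 against 16.6 CPM in chow. Clstn3 was at 63.7 against 20.7 CPM in DEN+WAD and 48.7 against 2.87 CPM in chow. Cadm3 and Clstn3, relatives of Cadm1 and Clstn2, thus lay in the same direction between the gates as Reln, Ngfr and Ntm. Cadm4 lay in the other direction in chow. Among Lrat-positive cells it had 9 UMIs against 0, so its log2 ratio of 0.63 there is a lower bound.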

How the data were processed

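The authors made the libraries from sorted liver cells with 10x Genomics droplets, and the labels name different versions of the 3' kit (v3.1 and v2). Per the submitters' processing notes, reads were aligned to mm10 with Cell Ranger 3.1.0, while 6.1.2 is named in the table labelled VitA-Col1a1-. The authors deposited raw, not normalized, UMI counts of 31053 genes in each barcode, and all barcodes were taken as cells. No doublet caller was run. Groups came from the labels, with 1 library in each, so no p-value was computed.

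UMIs were summed over cells and scaled to 1000000, giving CPM, with exact Poisson intervals. Ratios carry exact conditional binomial intervals and shares exact Clopper-Pearson intervals, all at 95% and covering counting error only. A gene with 0 UMIs was set to a floor of 3 UMIs, and the limit for a share of 0 is 3 cells of the total. Cells under 5000 UMIs were left out of shares (268 and 5 cells of the VitA+ gate in DEN+WAD and chow, 157 and 25 of the VitA- gate, and 2547 of the library labelled VitA-Col1a1-), and the rest were thinned to 5000 UMIs with seed 7. A cell was Lrat-positive with at least 1 Lrat UMI. Past 2-fold was counted among genes with at least 5 CPM in 1 of the 2 libraries.

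Each library was clustered by itself (scanpy 1.11.5, 2000 variable genes, 30 components, 15 neighbours, Leiden resolution 1). A cluster took the name of the marker list with the largest share of genes found in at least 25% of its cells, given at least 3 such genes. It stayed unnamed where another class led its 10 top genes, where an unrelated list had 75% of its genes found, or where its median UMIs were under the library's median divided by 3 and none of its list was among its top genes. Names may differ from the study's. Mesenchymal-like clusters join HSC-, portal fibroblast- and smooth muscle-like ones.

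The members and lists were chosen with earlier results of these data known. All 9 members were named, and from the pathway lists every gene past 2-fold with an interval clear of no change, except some genes that are not reported here. Likeness was Pearson's r of log2(CPM + 1) over clusters of at least 20000 UMIs, for genes of at least 20 CPM in 1 library. It was sought for Reln, Ngfr, Ntm, Cadm1, Alcam and Syn3, with up to 3 genes named for each. Gene positions were from GENCODE M21 on GRCm38. Scripts were checked on simulated counts. Python 3.11.15, numpy 2.4.6, scipy 1.17.1, pandas 2.3.3, leidenalg 0.10.2, matplotlib 3.10.9, R 4.3.3 and edgeR 4.0.16 (TMM factors) were used. Alternatives were TMM scaling, the mean over cells, Lrat-positive cells, classes of cell, a fold of 1.5, a depth of 2000 UMIs or none, 2 Lrat UMIs, leaving out cells with markers of other classes, and resolution 0.5.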

Additional observations from a re-analysis of the deposited data

Results flagged for a closer look

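Of the 9 genes, 5 were flagged because their log2 ratio of DEN+WAD to chow had opposite signs in the 2 vitamin A gates. With 1 library per group, the difference between the gates was not tested. Reln was at -0.69 in the VitA+ gate and 2.44 in the VitA- gate, Ngfr at -0.58 and 1.34, and Ntm at -0.15 and 2.04. Ncam1 went the other way, at 2.42 and -1.18, and so did Dclk1, at 6.32 (1 UMI in chow) and -0.85. In HSC-like clusters Ncam1 was higher in DEN+WAD in both gates. It was at 3.29 against 1.38 CPM in VitA+ and 4.04 against 1.71 CPM in VitA-, with 7 and 3 UMIs in chow. Without the Ephx3-led cluster, Reln, Ngfr and Ntm were lower in DEN+WAD in HSC-like clusters of both gates.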

How the results depend on the processing

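With 1 library per group, no spread between animals was measured, and the chow VitA+ library of 259 cells sets the precision. The labels give no replicate numbers. No paired analysis was possible because each group had 1 library and no result came from a test. Log2 ratios changed sign in these cases. For DEN+WAD against chow in the VitA+ gate, Ntm was at 0.035 with TMM scaling, and Alcam at -0.34 in HSC-like clusters and -0.037 as the mean over cells. In the VitA- gate, HSC-like clusters gave 1.24 for Ncam1 and -0.73 for Clstn2. Without the Ephx3-led cluster, chosen after seeing the data, they gave -0.52 for Reln, -0.37 for Ngfr, -0.48 for Ntm, -0.060 for Alcam, -1.16 for Clstn2 and, as a lower bound, 0.28 for Dclk1. Between gates in DEN+WAD, HSC-like clusters gave 0.62 for Clstn2 and -0.90 for Dclk1. In chow they gave -1.24 for Alcam and 3.12 for Clstn2 (3.55 without the Ephx3-led cluster), and mesenchymal-like clusters gave -0.44 and 0.51. Counts of members past 2-fold that moved by over 1.5 times were these. DEN+WAD against chow, lower, was 2 at 1.5-fold in the VitA+ gate (1 at 2-fold), and 1 in mesenchymal-like clusters in the VitA- gate (2 in all cells), where higher was 1 without the Ephx3-led cluster (6 in all cells). Between gates in DEN+WAD, higher was 0 in HSC-like clusters and 4 at 1.5-fold (2 in all cells at 2-fold), and lower was 3 in Lrat-positive cells and 0 in HSC-like clusters (5 in all cells). In chow, lower was 0 without the Ephx3-led cluster (4 in all cells). Members in at least 10% of Lrat-positive cells of the library labelled VitA-Col1a1- were 4 at 2000 UMIs and 7 at 5000. The cause was not tested.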
